A study of Mus musculus with 12 samples.

Results

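The genes described here are Il4ra, the STAT genes Stat3, Stat5a, Stat5b and Stat6, and the feedback inhibitor genes Socs1, Socs2, Socs3 and Cish, followed over 6 groups of splenic B cells. They are 9 of the 18193 genes that the array named by a single symbol, found by symbol, each represented by its brightest probe set. All but Socs1 passed the filter on low values, so 8 were among the 9306 genes tested. Cells were sorted from female C57BL/6 mice aged 10 weeks. The groups were marginal zone (MZ) cells, taken as CD21highCD23low, and follicular (FO) cells, taken as B220+AA4.1-CD21intCD23+. Each came from mb1-cre(+/-) mice that carried 2 floxed Bcl6 alleles (homozygous), 1 (heterozygous) or none (wild-type), with 2 arrays a group. The Cre allele, which is active in the B lineage from early stages, was present in every group including the wild-type, so no group lacks Cre and deletion precedes the mature cells that were sorted.

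Cytokine receptors of this family have no kinase of their own. When a ligand such as IL-4 brings the receptor chains together, bound Janus kinases phosphorylate the chains and then STAT proteins, which enter the nucleus and activate their target genes. Among those targets are the SOCS genes and Cish, whose SH2 proteins bind the receptors or kinases and dampen the signal. IL-4 reaches B cells through the Il4ra chain and STAT6, and is known for raising CD23 and MHC class II on resting B cells. BCL6 is a transcriptional repressor whose DNA recognition sequence resembles that of STAT factors.

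The stretch before the start of Il4ra, Socs3 and Cish is shown because these genes lead the comparisons below and because STAT factors bind a palindrome, TTCNNNGAA, where N is any base. The palindrome reads the same on both strands, and it was searched in RefSeq windows of GRCm38.p6 that run from 250 bases before to 50 bases after each start. Such windows were given for 8 of the 9 members (all but Socs2), in 10 windows. It was present in 2 members, Socs3 and Cish, and in 8.3% of all 32851 windows. The form with a spacer of 1 more base, TTCNNNNGAA, which STAT6 also binds, was in none of the members' windows and in 6.95% of all windows. The starts used for Socs3, Stat3, Stat5a, Stat5b and Stat6 lie inside the RefSeq spans of these genes, not at their outer ends. The Socs3 span is chr11:117966079-117970336, so its stretch below comes from within the gene. Capitals mark the matches. For Il4ra (chr7:125552021-125552270, plus strand) and Socs3 (chr11:117969367-117969616, minus strand) the 250 bases before the start are given, and for Cish (chr9:107296654-107296683, plus strand) the 30 bases around its start.
Il4ra: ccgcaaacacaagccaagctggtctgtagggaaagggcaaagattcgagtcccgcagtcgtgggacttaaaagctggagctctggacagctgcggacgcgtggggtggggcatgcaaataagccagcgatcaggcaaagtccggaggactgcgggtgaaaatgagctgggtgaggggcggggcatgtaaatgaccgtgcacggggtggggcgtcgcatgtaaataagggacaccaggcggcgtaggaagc
Socs3: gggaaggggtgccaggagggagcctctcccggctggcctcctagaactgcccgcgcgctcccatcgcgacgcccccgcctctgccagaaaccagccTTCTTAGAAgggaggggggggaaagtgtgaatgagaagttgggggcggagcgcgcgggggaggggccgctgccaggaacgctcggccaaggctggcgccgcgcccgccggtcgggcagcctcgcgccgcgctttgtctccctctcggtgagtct
Cish: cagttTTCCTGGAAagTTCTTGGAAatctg
The Socs3 match lies between bases -154 and -146 from the start, and the 2 Cish matches begin at bases 1 and 12. These are matches of letters, not measured binding.

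The sort was visible on the arrays. All 6 marginal zone marker genes of the list were higher in MZ cells and all 3 measured follicular markers lower (limma, adjusted over 9306 genes), and the mean of the B cell markers lay between 11.93 and 12.71 on every array. CD23 is the product of Fcer2a and CD21 that of Cr2, so neither is a finding between the cell types. The targeted gene had 2 probe sets. The dimmer one read 2.36 and 2.48 in FO homozygous, 4.93 and 4.86 in FO heterozygous and 4.94 and 5.61 in FO wild-type cells (difference of homozygous from wild-type -2.86, adjusted p = 0.00365 in the limma fit over probe sets), but it was at the minimum on all MZ arrays and checks nothing there. The dimmer one passed the filter on low values only through FO heterozygous and wild-type arrays, so its call had that direction given. The brighter one was not lower in homozygous cells of either type, at +0.99 in FO (adjusted p = 0.277) and +1.61 in MZ (0.244). Its place relative to the floxed exons is not given in the sources used here. MZ wild-type replicate 1 had a Gapdh signal 6.90 log2 units lower at the 5' end than at the 3' end, against -0.20 to 0.63 on the 11 other arrays. Several results that rest on that array are given without it as well. Markers of neutrophils, which the depletion with CD11b and Gr-1 antibodies should have removed, averaged 6.29 on FO homozygous replicate 1, 5.28 on MZ wild-type replicate 1, 4.58 on FO heterozygous replicate 1, 4.48 on MZ homozygous replicate 1 and 2.27 to 2.31 on the other arrays, over 6 genes on the array. In all 6 groups replicate 1 was above replicate 2 in the mean of the macrophage and plasma cell markers and below it in that of the B cell markers. In a bulk sample, fewer cells of a type and less RNA per cell cannot be told apart.

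Between MZ and FO cells, averaged over the 3 genotypes, Il4ra, Socs3, Stat3 and Stat6 were lower in MZ cells. Cish was called higher, but it passed the filter on low values only through 2 MZ arrays, so its call had that direction given. Il4ra was lower by 2.37 log2 units and Socs3 by 1.42, while Stat3 and Stat6 were lower by less than 1. Of the 8 members tested, 4 were lower and 1 higher, and the others, Stat5a, Stat5b and Socs2, did not pass (limma, adjusted over all genes). The background was wide, since 44.5% of all genes tested were called in this comparison, 28.3% lower and 16.2% higher. The median difference was -0.64 over the 8 members and -0.17 over all genes tested. After quantile normalization over all 12 arrays the median of all genes moved to 0.04, the split over all genes changed to 2133 higher and 1505 lower, in place of 1508 higher and 2629 lower, and Stat3 and Stat6 no longer passed. Il4ra and Socs3 remained lower and Cish higher there (3 of 8 members called, against 39.1% of all genes).

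**Figure D1:**
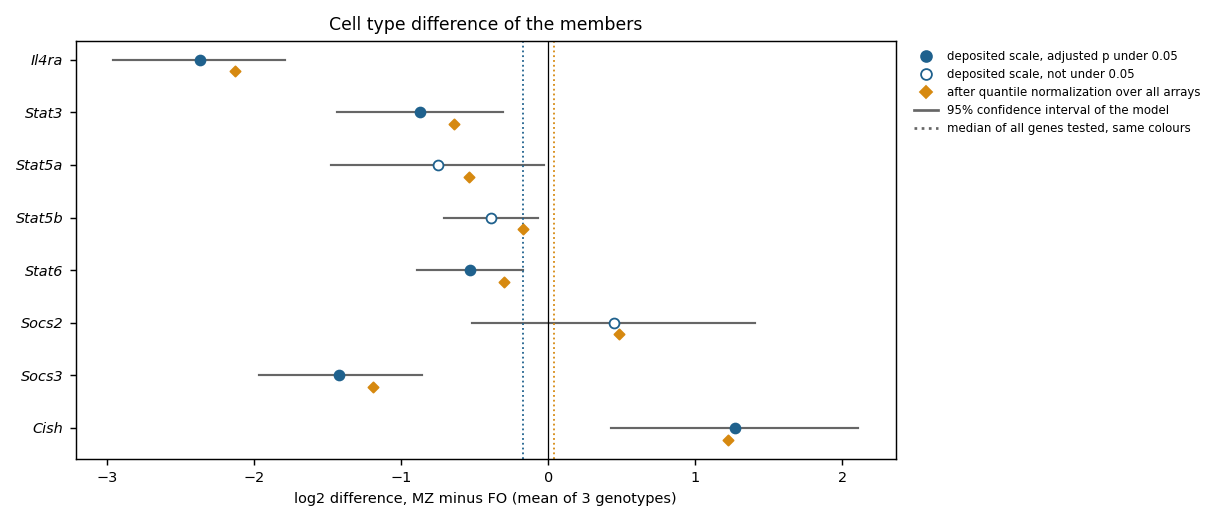
Log2 difference, MZ minus FO, averaged over 3 genotypes, for the 8 tested members, with the 95% confidence interval of the model (bars), the value after quantile normalization over all arrays (diamonds) and the median of all genes tested (dotted lines). Il4ra lies farthest to the left at -2.37 and Cish to the right at 1.27, and quantile normalization moves 7 of the 8 members nearer to 0.

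Il4ra, on chromosome 7, showed the largest difference among the members. In MZ cells it read 8.28 and 8.17 in homozygous, 8.25 and 8.21 in heterozygous and 6.61 and 8.33 in wild-type cells. In FO cells it read 9.79 and 9.85 in homozygous, 10.42 and 10.64 in heterozygous and 10.58 and 10.80 in wild-type cells. Every MZ array was below every FO array, as for 17.0% of all genes, and the lowest value was that of the MZ wild-type array with the weak 5' signal. The mean difference was -2.37 ± 0.26 (SE, adjusted p = 0.000118 by limma), about 5.18-fold lower in MZ cells, and -2.09 without that array (adjusted p = 2.29e-06).

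The Il4ra difference was present in each genotype. It was -1.59 in homozygous cells (adjusted p = 0.0377), -2.30 in heterozygous cells (0.00676) and -3.22 in wild-type cells (0.00112), each with SE 0.44 from the same limma model. The one in homozygous cells passed in only 2 of the 12 fits that left out 1 array, with adjusted p between 0.000270 and 0.155, though its size stayed between -1.65 and -1.54. Without MZ wild-type replicate 1 the wild-type difference was -2.36. A second Il4ra probe set gave -3.49 ± 0.17 (adjusted p = 2.41e-06 over probe sets) with MZ arrays between 2.54 and 3.26 and FO arrays between 5.79 and 7.04. It passed the filter on low values only through FO cells, so its call had that direction given. Its MZ values lie close to the minimum, so the size depends on the background correction. The remaining probe set was at the minimum on all arrays.

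The STAT genes were well expressed in both cell types on the probe sets that represent them, and their differences were smaller. Stat3, Stat5a and Stat5b each had a further probe set that did not pass the filter. These lay within 0.5 log2 units of the minimum on 12, 11 and 12 arrays. Stat5a and Stat5b therefore rest on 1 probe set each. STAT3 carries signals of IL-6, IL-10 and IL-21. Stat3 ranged from 8.64 to 10.02 over the 6 MZ arrays (median 9.73) and from 10.02 to 10.60 over the 6 FO arrays (median 10.42). The ranges touched at 1 value, and the difference was -0.87 ± 0.25 (adjusted p = 0.0206, or 0.0237 at -0.65 without MZ wild-type replicate 1). It missed the threshold after quantile normalization (-0.64, adjusted p = 0.0662) and in 3 of the 12 fits without 1 array. A second probe set gave -0.73 (adjusted p = 0.00877) and another one -0.70 (0.121), in the fit over probe sets, which called 39.5% of them.

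STAT6 is the main carrier of the IL-4 signal. Stat6 ranged from 10.46 to 11.16 over MZ arrays (median 10.68) and from 10.94 to 11.58 over FO arrays (median 11.30), so the cell types overlapped. Its difference was -0.53 ± 0.16 (adjusted p = 0.0249). The value became -0.30 after quantile normalization (adjusted p = 0.158), and it missed the threshold in 7 of the 12 fits without 1 array. The other Stat6 probe set gave -0.98 (adjusted p = 0.0363, lost in 9 of 12 fits without 1 array). It came to -0.66 when MZ wild-type replicate 1 was left out, where it read 6.32 against 7.65 to 8.24 on the other MZ arrays.

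STAT5A and STAT5B, near-identical proteins from neighbouring genes on chromosome 11, transmit signals of IL-2 and IL-7 among others. Stat5a ranged from 5.87 to 7.64 in MZ (median 6.93) and from 6.94 to 7.91 in FO cells (median 7.67), with a difference of -0.75 ± 0.32 that did not pass (adjusted p = 0.0865, interval -1.48 to -0.03). The value depended on the MZ wild-type arrays, at -0.45 without replicate 1 (adjusted p = 0.133) and -1.05 without replicate 2 (0.00662). Stat5a was lower on replicate 1 than on replicate 2 in all 6 groups. Stat5b ranged from 9.29 to 9.78 in MZ (median 9.59) and from 9.46 to 10.18 in FO cells (median 10.06), with a difference of -0.39 ± 0.14 that narrowly missed the threshold (adjusted p = 0.0513, interval -0.71 to -0.07). It passed without the filter (0.0499), with trend and robust moderation (0.0460) and without FO wild-type replicate 1 (-0.51, 0.00905), and not after quantile normalization (0.349). Both were lower in MZ cells in all 3 genotypes, and quantile normalization brought them to -0.54 and -0.17. Stat5b in wild-type cells turned from -0.13 to 0.03 under that scaling.

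**Figure D2:**
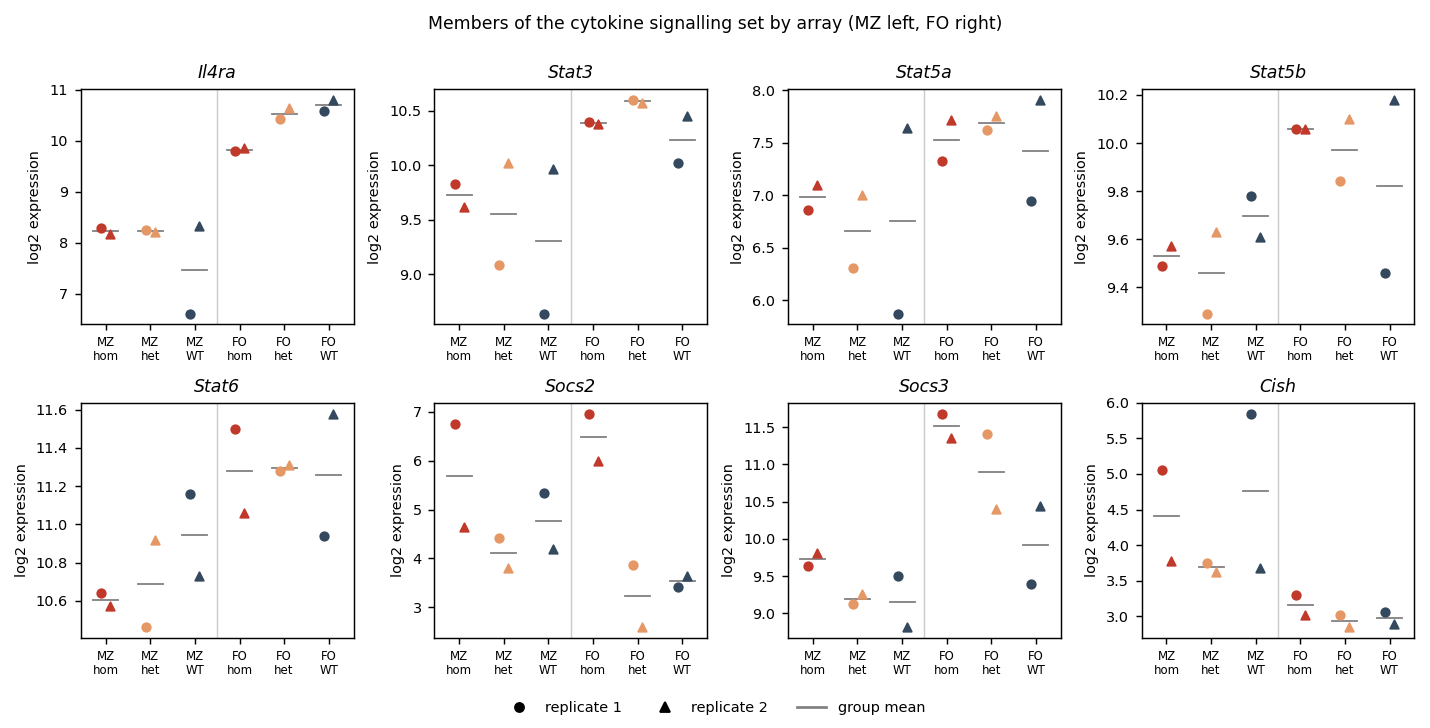
Log2 expression of the 8 tested members on each of the 12 arrays, MZ groups on the left and FO groups on the right of each panel (circles, replicate 1; triangles, replicate 2; lines, group means). The vertical axes differ between panels. Il4ra and Cish separate the cell types on all arrays, and Socs2 and Socs3 are highest in FO homozygous cells.

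Socs3 and Cish, both induced by STAT factors, were called in opposite directions between the cell types. The direction of the Cish call was given by the filter on low values. Socs3, whose protein blocks gp130 receptors and their kinases, read 9.64 and 9.81 in homozygous, 9.13 and 9.26 in heterozygous and 9.50 and 8.81 in wild-type MZ cells. In FO cells it read 11.68 and 11.35 in homozygous, 11.40 and 10.40 in heterozygous and 9.39 and 10.44 in wild-type cells. The MZ arrays overlapped the FO range only through FO wild-type replicate 1. The difference was -1.42 ± 0.24 (adjusted p = 0.00167), and it passed in all 12 fits without 1 array and in all 6 other settings.

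The Socs3 difference was uneven over the genotypes. It was -1.79 in homozygous (adjusted p = 0.0189), -1.71 in heterozygous (0.0207) and -0.76 in wild-type cells (0.238), and that the homozygous and wild-type values differ did not pass a test of its own (-1.04 ± 0.60, adjusted p = 0.975). Calls within a genotype were lost in 4 of the 12 fits without 1 array for homozygous and in 3 for heterozygous cells. The other Socs3 probe sets gave -1.61 (adjusted p = 0.00315) and -1.98 (0.0133) for the mean difference.

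Cish encodes CIS, an inhibitor induced through STAT5, and was the only member called higher in MZ cells. It read 5.06 and 3.77 in homozygous, 3.75 and 3.62 in heterozygous and 5.85 and 3.68 in wild-type MZ cells. In FO cells it read 3.30 and 3.01 in homozygous, 3.01 and 2.84 in heterozygous and 3.06 and 2.89 in wild-type cells. All FO arrays were below all MZ arrays, as for 11.4% of all genes, and all were under the filter value of 4, so the gene passed the filter through 2 MZ arrays. Cish was higher on replicate 1 than on replicate 2 in all 6 groups. The 2 MZ arrays are those with neutrophil marker means of 4.48 and 5.28, and the part of such cells in the result was not tested. The difference was 1.27 ± 0.37 (adjusted p = 0.0220). Leaving out MZ wild-type replicate 1 gave 0.91 (adjusted p = 0.0152), and leaving out MZ homozygous replicate 1 gave 1.06 (0.0564). The threshold was missed in 5 of the 12 fits without 1 array (adjusted p 0.0523 to 0.0564).

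Socs2, whose protein restrains growth hormone signalling, gave no single answer between the cell types. The probe set that represents it gave 0.45 ± 0.42 (adjusted p = 0.418, interval -0.52 to 1.41) and another gave -0.65 (adjusted p = 0.0307 over probe sets, lost in 9 of 12 fits without 1 array). Socs1, an inhibitor of Janus kinases, had 1 probe set, which was at the minimum on all 12 arrays, so nothing was measured of it beyond that bound.

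Within a genotype, the arrays of the cell types did not overlap for 7 of the 8 members in homozygous and in heterozygous pairs. In each, 6 were lower in MZ cells, and Cish was higher. Over all genes, 42.8% were lower and 21.0% higher without overlap in homozygous cells, and 42.0% and 23.6% in heterozygous cells. In wild-type pairs, Il4ra and Stat3 were lower and Socs2 and Cish higher without overlap, against 33.7% and 23.1% of all genes. In the fits within a genotype, 2 members were called lower in homozygous cells (19.1% of all genes called), the same number in heterozygous cells (23.2%) and 1 in wild-type cells (22.2%).

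Deletion of Bcl6 was set against wild-type cells within each cell type, where both sides share 1 minimum. In FO cells homozygous for the deletion, Socs2 and Socs3 had the largest positive differences among the members, at 2.95 and 1.60 log2 units, and Il4ra was the only member with a lower mean. None of the 8 members passed the threshold at the gene level (limma, lowest adjusted p = 0.213), while 0.430% of all genes did, and 2 members had an unadjusted p under 0.05, against 6.97% of all genes. In MZ cells homozygous for the deletion no member passed (lowest adjusted p = 0.812), and 0.0645% of all genes did. None had an unadjusted p under 0.05, against 6.08% of all genes. In heterozygous cells no member passed in either cell type, with an adjusted p of 1 for all of them in FO cells, where no gene at all was called, and of 0.792 or more in MZ cells, where 0.0107% of all genes were. One member, Socs3, had an unadjusted p under 0.05 in FO heterozygous cells, against 1.98% of all genes.

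**Figure D3:**
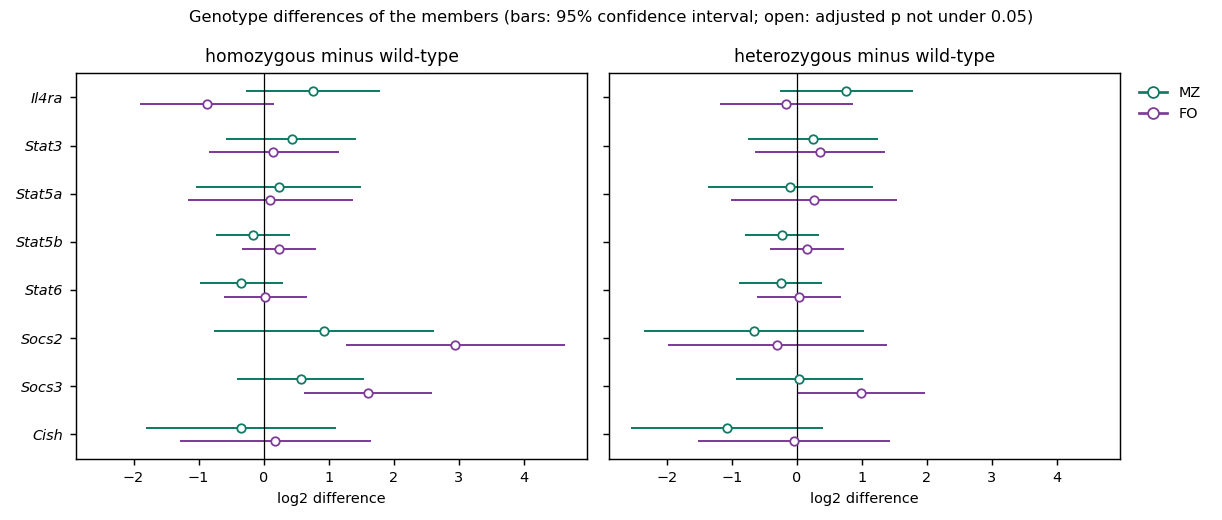
Log2 difference of homozygous from wild-type cells (left) and of heterozygous from wild-type cells (right) for the 8 tested members, in MZ (green) and FO (purple) cells, with the 95% confidence interval of the model for each gene alone. No member passed an adjusted p of 0.05. The intervals of Socs2 and Socs3 in FO homozygous cells lie above 0.

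Socs2 in FO cells read 6.96 and 5.99 in homozygous, 3.87 and 2.59 in heterozygous and 3.42 and 3.64 in wild-type cells. Both homozygous arrays were more than 2 log2 units above the other 4, which did not separate by genotype. The difference of homozygous from wild-type was 2.95 ± 0.73 (adjusted p = 0.213 by limma, interval for the gene alone 1.28 to 4.62). Heterozygous cells gave -0.30 ± 0.73 (adjusted p = 1).

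A second Socs2 probe set showed the same order with less scatter. It read 6.83 and 5.93 in FO homozygous, 3.77 and 3.77 in FO heterozygous and 3.84 and 3.80 in FO wild-type cells. Its difference was 2.56 ± 0.34, which passed over 16693 probe sets (adjusted p = 0.0378, 0.216% of probe sets called). It reached the filter value of 4 only on homozygous arrays, so its call had that direction given. The call is not stable. It held without either of the MZ homozygous or MZ wild-type arrays, and was lost in the 8 other fits without 1 array (adjusted p 0.0746 to 0.216), without the filter (0.135), after quantile normalization (0.0809), with trend and robust moderation (0.0502) and with the FO arrays alone (0.252). The size stayed between 2.12 and 3.01 in these fits. The other 4 Socs2 probe sets did not pass the filter.

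In MZ cells Socs2 read 6.74 and 4.65 in homozygous, 4.41 and 3.80 in heterozygous and 5.34 and 4.19 in wild-type cells. The homozygous and wild-type arrays overlapped, and the difference of 0.93 ± 0.73 (adjusted p = 0.835, interval -0.74 to 2.60) came to -0.12 without MZ homozygous replicate 1. On the second probe set both MZ homozygous arrays, at 5.02 and 4.18, were above the heterozygous ones at 3.82 and 3.54 and the wild-type ones at 3.82 and 3.64, with a difference of 0.87 (adjusted p = 0.876, with 0.0180% of probe sets called). The difference of the MZ effect from the FO effect was -2.02 ± 1.03 on the representing probe set, which did not pass (adjusted p = 0.975 by limma). Averaged over both cell types, homozygous deletion gave 1.94 ± 0.52 (adjusted p = 0.235, with 0.462% of all genes called) and, on the second probe set, 1.72 ± 0.24 (0.0535, with 0.0839% of probe sets called).

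**Figure D4:**
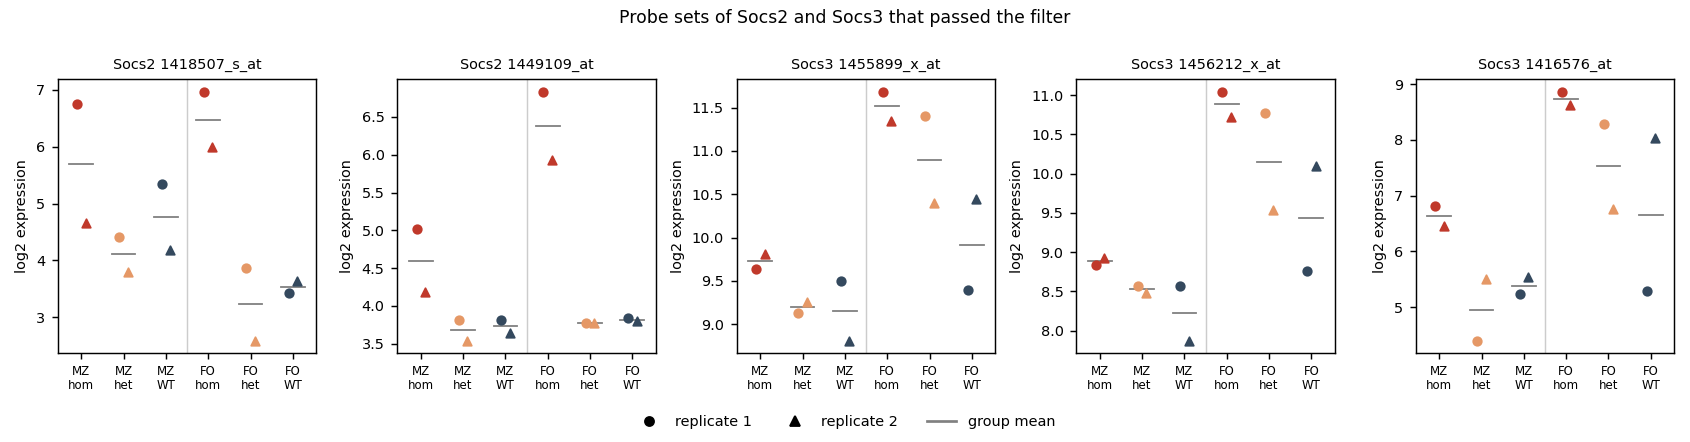
Log2 expression of the 2 Socs2 and 3 Socs3 probe sets that passed the filter on each of the 12 arrays, MZ groups left and FO groups right (circles, replicate 1; triangles, replicate 2; lines, group means; vertical axes differ). Both Socs2 probe sets are above the FO heterozygous and wild-type arrays on both FO homozygous arrays, and the Socs3 probe sets are all highest in FO homozygous cells.

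Socs3 in FO cells followed the values given above, with both homozygous arrays above both wild-type arrays and the heterozygous ones between or overlapping. The difference was 1.60 ± 0.42 in homozygous (adjusted p = 0.248, interval 0.64 to 2.57) and 0.99 ± 0.42 in heterozygous cells (adjusted p = 1). It was 1.08 in homozygous cells without FO wild-type replicate 1, and 2.13 without FO wild-type replicate 2. The heterozygous value was 0.47 and 1.51 without these arrays. The other Socs3 probe sets gave 1.45 (adjusted p = 0.690) and 2.08 (0.817) in homozygous FO cells. In MZ cells the homozygous arrays, at 9.64 and 9.81, were again both above the wild-type arrays at 9.50 and 8.81, with a difference of 0.57 ± 0.42 (adjusted p = 0.828). Averaged over both cell types the difference was 1.09 ± 0.30 (adjusted p = 0.258).

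Other values moved with these arrays. Immediate early genes, which rise within minutes of stimulation or handling, averaged 11.46 and 10.58 in FO homozygous, 11.29 and 10.40 in FO heterozygous and 9.30 and 11.42 in FO wild-type cells over 17 genes. The low FO wild-type array is the one with the lower Socs3 value. In MZ cells they averaged 11.30 and 10.02 in homozygous, 8.37 and 9.88 in heterozygous and 11.15 and 10.34 in wild-type cells. The neutrophil markers were high on FO homozygous replicate 1 and at 2.31 on replicate 2, where Socs2 read 5.99 and Socs3 11.35, both above the 2 wild-type arrays. The part of neutrophils and of the immediate early genes in the Socs2 and Socs3 values was not tested.

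Il4ra was lower in FO homozygous than in FO wild-type cells without overlap, by 0.87 ± 0.44. The difference did not pass (adjusted p = 0.825 by limma, interval -1.88 to 0.14). Its SE pools the spread of all 6 groups. The SD was 0.04 in FO homozygous and 0.15 in FO wild-type cells, against 1.21 in MZ wild-type cells. The difference was -0.98 without FO wild-type replicate 1 and -0.76 without FO wild-type replicate 2. In MZ cells the homozygous mean was higher by 0.76 ± 0.44 (adjusted p = 0.812), a value that rests on MZ wild-type replicate 1, since it was -0.10 without that array and 1.62 without the other wild-type array (adjusted p = 0.00596). The difference between these effects was 1.63 ± 0.63 (adjusted p = 0.975, with 0.0107% of all genes called, and an unadjusted p under 0.05 that 3.74% of all genes had). It came to 0.77 without MZ wild-type replicate 1 and to 2.49 without replicate 2. The second Il4ra probe set gave -0.39 in FO homozygous cells, with overlap. It gave -0.32 in MZ homozygous cells, where its values lie close to the minimum.

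The STAT genes showed no genotype difference past the threshold. In FO homozygous cells Stat3, Stat5a, Stat5b and Stat6 differed from wild-type by 0.15, 0.10, 0.24 and 0.02, and in MZ homozygous cells by 0.43, 0.23, -0.16 and -0.34. The widest intervals were those of Stat5a, -1.15 to 1.36 for FO cells and -1.03 to 1.48 for MZ cells. Those of Stat3 were -0.83 to 1.14 for FO cells and -0.56 to 1.41 for MZ cells. For both genes this model, whose SD is shared by all 6 groups, cannot separate a difference of 1 log2 unit from none. Their spread was widest in MZ wild-type cells, with an SD of 0.94 for Stat3 and 1.26 for Stat5a. In FO cells it was at most 0.31 and 0.69. Cish differed by 0.18 in FO and -0.35 in MZ homozygous cells. For Stat3, Stat5a and Cish the MZ homozygous arrays lay between the 2 MZ wild-type arrays. The sign of these MZ differences therefore depends on the wild-type array used, and replicate 1 is the array with the weak 5' signal. Counting members whose arrays did not overlap, Socs2 and Socs3 were higher (18.0% of all genes) and Il4ra lower (15.9%) in FO homozygous cells. Socs3 was higher (9.96%) and Stat5b and Stat6 lower (21.3%) in MZ homozygous cells. Stat3 was higher in FO heterozygous cells (12.8%), and no member separated in MZ heterozygous cells (28.2% of all genes did, in either direction). Other probe sets of Stat6 and Stat3 did not all keep these directions. The second Stat6 probe set gave 0.84 in MZ homozygous cells, with overlap, and rested on MZ wild-type replicate 1 at 6.32. The other Stat3 probe sets that passed the filter gave -0.14 and 0.19 in FO heterozygous cells. In MZ homozygous cells they gave -0.36 and -0.19.

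Other genes of the pathway were followed between MZ and FO cells through 5 lists, to be read against the 28.3% of all genes called lower and 16.2% called higher in this comparison. Of the other STAT genes, Stat4 was lower in MZ cells (-1.43 ± 0.21, adjusted p = 0.000764) among 2 tested. Of the 4 Janus kinase genes, Jak2 (-0.73 ± 0.10, adjusted p = 0.000557) and Jak1 (-0.91 ± 0.28, 0.0270) were lower and none higher, and Jak1 did not pass after quantile normalization (0.0773) or in 7 of the 12 fits without 1 array. The median difference was -0.39 for the kinases, against -0.17 over all genes tested.

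The receptor chains differed in both directions, with 4 of 14 tested higher and 4 lower, also after quantile normalization. The number lower is close to the share over all genes. Csf2rb, the beta chain shared by the receptors of IL-3, IL-5 and GM-CSF, averaged 11.31, 11.34 and 11.63 in homozygous, heterozygous and wild-type MZ cells, against 8.67, 7.96 and 7.95 in the FO cells of the same genotypes (3.23 ± 0.12, adjusted p = 1.85e-07). Il15ra was higher by 2.19 ± 0.23 (adjusted p = 0.000100). Il9r lay between 4.67 and 7.39 on MZ arrays and between 2.36 and 3.06 on FO arrays, near the minimum, so it passed the filter only through MZ cells and the size of its difference is not given by these values (adjusted p = 0.000100). Lifr, the receptor of leukemia inhibitory factor, was at the minimum of 2.22 on all MZ arrays, and averaged 7.43, 6.33 and 6.07 in homozygous, heterozygous and wild-type FO cells (adjusted p = 8.50e-08), and it passed the filter only through FO cells.

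Among the other inhibitors 4 of 14 were lower in MZ cells and 1 higher, so that the number lower is again close to the share over all genes. Pias3, an inhibitor of STAT3, was lower by 0.96 ± 0.16 (adjusted p = 0.00142), and the phosphatase genes Ptpn6 and Ptprc by 0.62 and 0.28 (0.0134 and 0.0198). Socs5 was higher by 0.38 (0.0298). The Ptprc call was lost in 3 and the Socs5 call in 7 of the 12 fits without 1 array. After quantile normalization 3 were higher and 1 lower, so the balance of this list depends on the scaling.

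Of the STAT target genes 8 of 17 were lower in MZ cells and 2 higher (28.3% and 16.2% of all genes), or 5 and 2 after quantile normalization, where more of all genes were called higher than lower. Fcer2a, a target of STAT6, was lower by 4.70, but the sort was made on its product. Gadd45g, a stress response gene, read 4.90 on 5 of the 6 MZ arrays, a constant value that bounds the size of its difference, against 7.95 to 9.24 on FO arrays (adjusted p = 2.89e-07). The cyclin gene Ccnd3 was lower by 1.39 ± 0.13 (4.63e-05), and Id2, which encodes an inhibitor of E proteins, was higher by 2.65 ± 0.26 (6.86e-05). With homozygous deletion in FO cells 1 of the 17 tested STAT target genes passed and none of the other 4 lists, against 0.430% of all genes. It was the cyclin gene Ccnd2, which read 11.38 and 11.18 in homozygous, 10.24 and 9.54 in heterozygous and 9.57 and 9.18 in wild-type FO cells (1.91 ± 0.28, adjusted p = 0.0363). The Ccnd2 call was lost in 8 of the 12 fits without 1 array, without the filter (0.124), with every probe set as a feature (0.0619) and with the FO arrays alone (0.223). In MZ homozygous cells none of the listed genes passed. Ccnd2 read 11.18 and 11.05 in homozygous, 9.54 and 9.55 in heterozygous and 10.56 and 9.93 in wild-type MZ cells. The difference of homozygous from wild-type was 0.87 ± 0.28 (adjusted p = 0.758 by limma). Averaged over both cell types Ccnd2 was called, at 1.39 ± 0.20 (adjusted p = 0.0296, with 0.462% of all genes called). That call was also lost in 8 of the 12 fits without 1 array.

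The order of the 6 groups differed between the members. Il4ra was highest in FO wild-type, then FO heterozygous cells, whose arrays overlapped, then FO homozygous cells, apart from both neighbours, and then the MZ groups, which overlapped each other. Stat3 had the FO groups above the MZ groups, with no overlap between FO wild-type and MZ homozygous cells. Stat5a, Stat5b and Stat6 also had all FO means above all MZ means, but there the lowest FO group overlapped the highest MZ group. Socs3 ran from FO homozygous over FO heterozygous and FO wild-type to MZ homozygous cells, each overlapping the next, with MZ heterozygous and wild-type cells lowest. Socs2 led with FO homozygous and MZ homozygous cells, which overlapped, and ended with FO wild-type and FO heterozygous cells. Cish had MZ wild-type and MZ homozygous cells highest, overlapping each other.

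The tested genes whose log2 values over the 12 arrays were most like a member's were found by Pearson correlation, as a description of arrays that share cell type and handling. For Il4ra they were Cxxc5, Zdhhc5 and Cdkn2d (r = 0.978 to 0.981). For Stat6 the closest was Pias1, of the inhibitor list (r = 0.977), and for Stat3 it was Dgat1 (r = 0.971). For Stat5a and Stat5b the closest were Slc6a6 (r = 0.960) and Puf60 (r = 0.975). For Socs3 they were Lpp, Evi5 and Slc26a10 (r = 0.937 to 0.958), and for Socs2 they were Upb1, Cpd and Dstn (r = 0.888 to 0.916). For Cish they were BC055324, Kif18a and Kif18b (r = 0.969 to 0.977). The median r over all other genes tested was between -0.18 and 0.27 for these members.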

How the data were processed

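Total RNA of sorted splenic B cells was hybridised to 12 Affymetrix mouse arrays, 2 for each of 6 groups. The deposited values are log2 expression values per probe set, made by the authors with GCRMA per the submitters' processing notes (no version is stated there). This method removes background estimated from probe sequences, equalises the arrays by quantiles and combines the probes, and weak probe sets end at a floor. Each of the 6 FO arrays had its floor at 2.21 and each of the 6 MZ arrays at 2.22, so the cell types may come from separate normalization runs, and run and cell type cannot be told apart. Genotype contrasts within a cell type are free of this.

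Of 45101 probe sets, 64 were controls, 34945 others had 1 gene symbol, 932 several and 9160 none listed. The members' gene numbers all matched the RefSeq table (9 of 9). Of several probe sets, the one brightest on average stood for the gene, giving 18193 genes, of which 9306 with a log2 value of at least 4 on at least 2 arrays were tested. One group-means model over all arrays was fitted with limma 3.58.1 in R 4.3.3 (lmFit, eBayes, 6 residual degrees of freedom). Tests were two-sided, with p-values adjusted by Benjamini-Hochberg over all genes tested and a threshold of 0.05. Where several probe sets of a gene are given, the model was fitted over 16693 probe sets and adjusted over those. No label says whether replicate arrays are different mice, so the p-values cover only the spread between these samples, possibly technical. Nor is it stated whether FO and MZ cells came from the same mice. The number of arrays limits the precision.

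In 20 simulations of the 9306 genes with 200 changed, the model recovered 34.8% of changes of 1 log2 unit and 78% of changes of 2 in FO homozygous against wild-type cells, and 73.9% and 94.9% in the mean MZ to FO difference. Of the calls, 5.56% and 5.67% were false. In the data 40 and 4137 genes were called in these 2 comparisons. The simulated shares hold for 200 changed genes and need not hold for the data.

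The named genes are the 9 members with all their probe sets. To these come, of each pathway list and comparison, up to 4 tested genes with the smallest p, and per member the 3 tested genes with the highest correlation over the arrays. The members and the lists were chosen with earlier results of these data known. Same-numbered arrays deviated together in some pairs of groups and not in others (r from -0.26 to 0.77, above 0.1 in 8 of 15 pairs). Since not every pair was above 0.1 and no label gives the numbers a meaning, they were not used as pairs. The alternatives tried concern the filter, every probe set as a feature, scaling over all arrays, variance moderation, a replicate block, the arrays in the model and leaving out each array. Promoter windows of GRCm38.p6 came from RefSeq.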

Additional observations from a re-analysis of the deposited data

How the results depend on the processing

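The number of genes called depended on the setting. Without the filter the counts were 17 in place of 40 for FO homozygous against wild-type, 1 in place of 0 for FO heterozygous, 5 in place of 1 for MZ heterozygous, 13 in place of 43 for homozygous deletion over both cell types and 6 in place of 1 for the difference between the homozygous effects. The same setting gave 7796, 8097, 8090 and 10671 genes for MZ against FO in homozygous, heterozygous and wild-type cells and on average, in place of 1775, 2159, 2066 and 4137, because genes at the 2 unequal minima then enter the test. With every probe set as a feature 3 genes were called in MZ homozygous cells in place of 6, 0 in MZ heterozygous cells and 14 for homozygous deletion over both cell types. MZ heterozygous cells also gave 0 after quantile normalization, with trend and robust moderation, with a replicate block, and in a fit to the MZ arrays alone. With the cell type's own arrays alone 5 genes were called in FO homozygous and 0 in MZ homozygous cells. A replicate block gave 61 genes in FO homozygous cells and 67 for homozygous deletion over both cell types. With the block the adjusted p was 0.0470 for Socs2 in FO homozygous cells, 0.0226 and 0.0331 for the mean cell type difference of Stat5a and Stat5b, 0.0352 for Cish between wild-type cells and 0.0334 for the second Socs2 probe set over both cell types, and it changed no other call among the members. For all these changes the cause was not tested beyond what the setting itself removes or adds. Without 1 array the counts ranged from 7 to 58 for FO homozygous, 0 to 1 for FO heterozygous, 2 to 325 for MZ homozygous and 0 to 415 for MZ heterozygous cells. They ranged from 5 to 272 for homozygous deletion over both cell types and from 1 to 107 for the difference between the homozygous effects. For MZ against FO they ranged from 1009 to 2070 in homozygous, 1081 to 2555 in heterozygous, 1307 to 2538 in wild-type cells and 3467 to 4268 on average. The highest counts for MZ homozygous, MZ heterozygous and the mean deletion effect came without MZ wild-type replicate 2, which leaves the array with the weak 5' signal alone. Of 684 single-gene values without 1 array, 582 kept direction and side of the threshold, 91 lost a call, 9 gained one and 2 changed sign. Those 2 were Socs2 in MZ homozygous cells (-0.12 without MZ homozygous replicate 1 and 1.98 without replicate 2) and Il4ra in MZ homozygous cells (-0.10 without MZ wild-type replicate 1 and 1.62 without replicate 2). Of 335 single-gene values under the other settings, 313 kept both, 15 lost a call, 7 gained one and 0 changed sign. Quantile normalization changed the split of calls to 1102 higher and 668 lower in wild-type, 1144 and 675 in heterozygous and 873 and 621 in homozygous cells, in place of 993 and 1073, 925 and 1234, and 771 and 1004. The alternatives for single probe sets were chosen after seeing the data. Signals near the minimum, as for Cish in FO cells and Socs1, limit what can be said of their size.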
